A study of Mus musculus with 6 samples.

Results

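Trp53, which encodes the transcription factor p53, and 9 genes that p53 is known to activate were followed in the submandibular gland of the mouse embryo with and without blebbistatin, together with the transcripts of each gene and above all those of Cdkn1a. The 10 genes (Trp53, Cdkn1a, Ccng1, Mdm2, Sesn1, Trp53inp1, Eda2r, Phlda3, Bbc3 and Zmat3) were taken by symbol from the deposited table of 24067 genes, and their 17 transcripts from the deposited table of 33819. They were proposed with earlier results of this same comparison in view. Their differences between the groups are therefore given as a description and are no independent evidence, also where a value of the test over all genes is printed.

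p53 is held at a low level by the ubiquitin ligase Mdm2, and signals such as DNA damage, replication stress or failed division relieve that control. The stabilised protein binds DNA as a tetramer and activates genes that stop the cell cycle, repair DNA, change metabolism or start apoptosis. Cdkn1a encodes p21, the inhibitor of cyclin-dependent kinases that carries much of the arrest, and Mdm2 is itself a target, which closes a feedback loop. Blebbistatin inhibits myosin II, the actin motor that also drives cytokinesis.

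All 6 libraries came from submandibular glands of ICR embryos at embryonic day 13, and 3 were controls and 3 had been treated with blebbistatin. The sources used here do not give the dose, the time, the vehicle or how many glands went into a library. The series title names epithelial buds, while the tissue label names the gland. No label ties the 3 libraries of a group to different cultures, animals or litters, so p-values reflect library-to-library spread alone, and that may be technical.

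The values are FPKM, fragments scaled to transcript length and library size, which can be compared between genes. From the lowest values of long genes with 1 transcript, depth was estimated at between 28200000 and 34200000 fragments per library. All 8 epithelial markers were above a mean of 1 FPKM, with sums of 1407 to 1792 FPKM in controls and 1324 to 1739 in treated libraries. The sums were at or below 0.961 FPKM for 5 endothelial, 2.63 for 4 glial, 2.42 for 5 neuronal, 4.08 for 5 leukocyte and 5.20 for 5 muscle markers in every library, and no marker was at 0 in all 6. The neuronal and muscle maxima were those of control replicate 3. Acta1 was at 2.67 and Actc1 at 1.94 FPKM there, against at most 0.204 and 0.235 in the other libraries. The 8 mesenchymal markers summed to 281 to 356 FPKM in controls and 337 to 375 in treated libraries, nearly all of it from Vim (mean 328), while their median member had a mean of 1.26. Col3a1 was at 7.26 FPKM in control replicate 1, against at most 2.18 in the other libraries. In bulk tissue, fewer cells of a type and less RNA per cell cannot be told apart.

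Cdkn1a lies on chromosome 17 of mm10 from 29090986 to 29100722, on the forward strand, and has 2 annotated transcripts that differ in their start site and first exon. The upstream transcript (NM_001111099) starts with an exon of 116 bases from 29090986 to 29091101. The downstream transcript (NM_007669) starts 2786 bases further on with an exon of 90 bases from 29093772 to 29093861. The remaining 2 exons are shared, and both transcripts hold the same coding sequence of 159 residues, so the choice of start changes the untranslated leader and not p21. The values of the transcripts rest on the fragments that touch those 116 or 90 bases.

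The DNA before the upstream and downstream starts is shown because the levels of the upstream transcript were apart between the groups and those of the downstream one overlapped. Each line holds the 250 bases before the RefSeq start site (build GRCm38.p6, forward strand, chr17:29090729-29090978 and chr17:29093519-29093768), and capitals mark a match to the 20-letter p53 consensus.
Cdkn1a upstream start: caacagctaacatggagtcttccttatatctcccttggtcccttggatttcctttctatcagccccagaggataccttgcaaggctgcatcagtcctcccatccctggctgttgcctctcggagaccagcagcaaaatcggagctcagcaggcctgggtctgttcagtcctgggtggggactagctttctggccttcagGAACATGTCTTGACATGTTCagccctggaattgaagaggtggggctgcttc
Cdkn1a downstream start: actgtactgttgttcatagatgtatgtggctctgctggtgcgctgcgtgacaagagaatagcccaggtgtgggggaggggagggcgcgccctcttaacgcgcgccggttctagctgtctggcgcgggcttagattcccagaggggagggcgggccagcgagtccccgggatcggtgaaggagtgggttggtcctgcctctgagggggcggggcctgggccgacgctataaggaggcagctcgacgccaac

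The upstream window holds a match with 1 mismatch, which ends 39 bases before the start of the upstream transcript in the deposited annotation and 2825 bases before that of the downstream transcript. The same stretch carries a pair of CATG cores 6 bases apart, found in 0.490% of 32851 promoter windows of the same length. A match to the p53 consensus with 0 or 1 mismatches was found in 0.0761% of those windows, and with up to 2 in 0.661%. No match with up to 2 mismatches was found before the downstream start, which says only that these letters are not in that window. The windows differ in composition too. The upstream one has 2 CpG dinucleotides and no GGGCGG on either strand, whereas the downstream one has 19 CpG and 2 GGGCGG, a motif present in 32.7% of windows. TATAA, present in 22.8% of windows on either strand, occurs in each of them.

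Windows were found for 8 of the 10 genes, 12 in all, and Trp53inp1 and Zmat3 had none. Besides the upstream Cdkn1a window, Ccng1 had a match, also with 1 mismatch, that lies between 195 and 176 bases before its start (chr11:40755462-40755481, reverse strand). The 250 bases before the Ccng1 start (chr11:40755287-40755536, reverse strand) are printed, with the match in capitals, because Ccng1 had the smallest p of the 10 genes.
Ccng1 start: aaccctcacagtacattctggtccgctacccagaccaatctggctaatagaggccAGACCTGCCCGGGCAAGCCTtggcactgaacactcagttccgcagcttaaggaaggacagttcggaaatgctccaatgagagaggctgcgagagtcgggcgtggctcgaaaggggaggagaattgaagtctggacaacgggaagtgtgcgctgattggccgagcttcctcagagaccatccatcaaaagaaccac

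The upstream Cdkn1a transcript had a higher mean with blebbistatin but did not pass the test, and the gene as a whole overlapped between the groups. It stood at 0.842, 0.476 and 0.151 FPKM in control replicates 1 to 3 and at 2.39, 2.32 and 0.844 FPKM in blebbistatin replicates 1 to 3. The lowest treated library lay just above the highest control, so the groups did not overlap, but by a narrow margin. The ratio of the means was 3.78, and the log2 fold change on the log2(FPKM + 1) scale was 0.91 ± 0.29 (moderated SE, limma, adjusted p = 0.412 over all transcripts). Its control mean of 0.489 FPKM was under the minimum of 1 FPKM for that test, and its treated mean was 1.85. It was therefore tested only through the treated libraries. In fragments of whole transcripts the levels per library correspond to about 47, 32 and 9 in controls and 133, 129 and 46 in treated libraries. The fragments that touch its own first exon, 116 of its 1936 bases, are only a part of these.

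The downstream transcript carried most of the Cdkn1a signal in every library. It stood at 21.9, 18.8 and 13.6 FPKM in controls and at 20.8, 17.5 and 10.6 FPKM in treated libraries. The groups overlapped, with a log2 fold change of -0.17 ± 0.26 (adjusted p = 0.993). Cdkn1a summed over both transcripts was at 22.8, 19.3 and 13.7 FPKM in controls and at 23.2, 19.9 and 11.4 in treated libraries (log2 fold change -0.06 ± 0.26, limma, adjusted p = 0.999). Replicate 3 was lowest in both groups, and the spread within a group was far larger than the difference between the means of 18.6 and 18.2 FPKM. The sign of the gene's log2 fold change depended on which libraries were used, from -0.26 without blebbistatin replicate 1 to 0.23 without blebbistatin replicate 3.

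As a share of the gene, the upstream transcript made up 3.69%, 2.47% and 1.10% in controls and 10.3%, 11.7% and 7.38% in treated libraries. Every treated library lay at least as far above the highest control as the controls lay from each other. The mean share was 2.42% ± 1.30 in controls against 9.79% ± 2.204 with blebbistatin (SD, n = 3), a difference of 7.37 percentage points that stayed between 6.41 and 8.57 when each library was left out in turn. A share is a ratio within 1 library, so the scale of the library drops out. In the limma test of 4997 transcript shares it was at rank 11 by p and did not pass, with an adjusted p of 0.975. With 2.42% in controls, it reached the minimum mean share of 5% for that test only through the treated libraries. Its rank and p therefore depend on the group where it was higher. In that test 0 shares passed at all, which is a percentage called of 0, and 4.56% had an unadjusted p under 0.05. The groups did not overlap for 9.37% of tested shares.

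**Figure D1:**
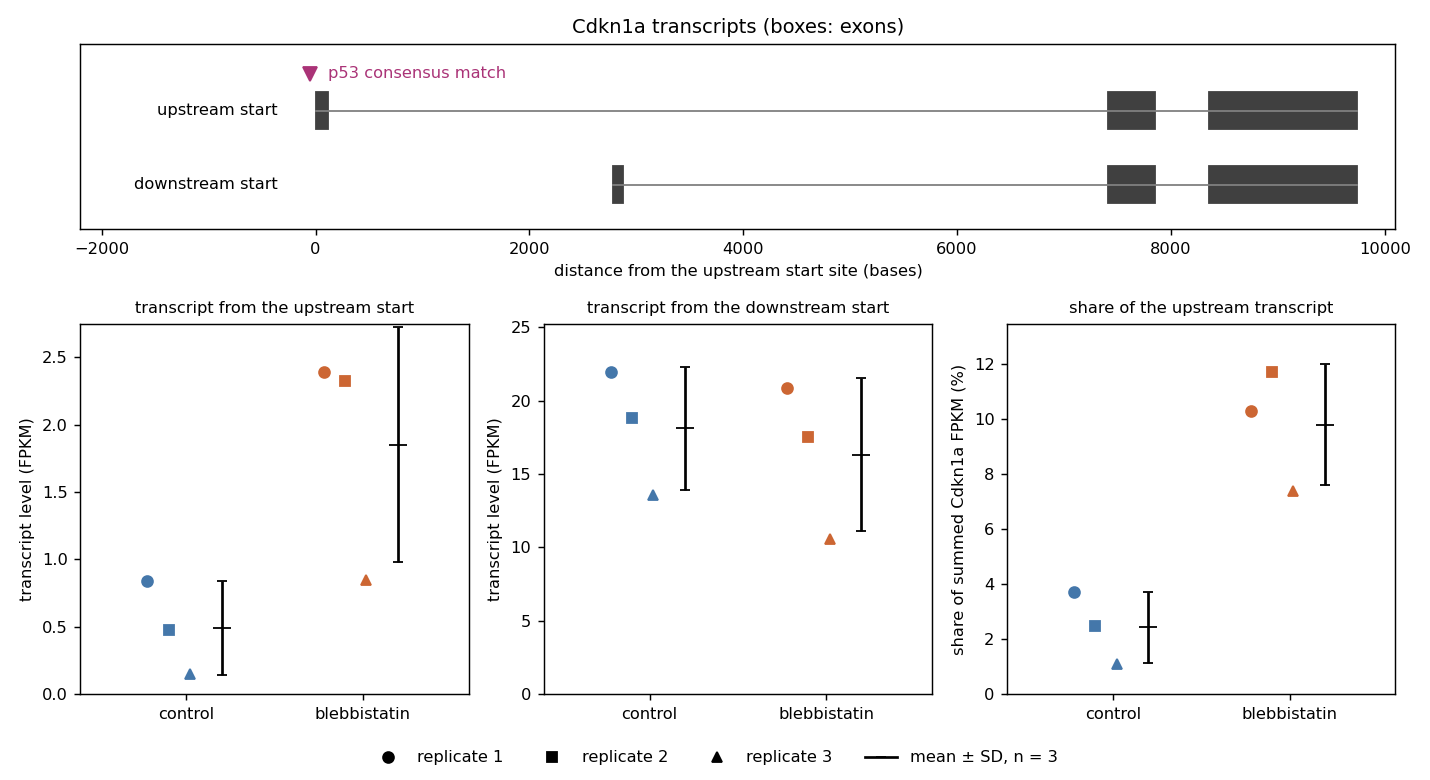
Top, the 2 Cdkn1a transcripts drawn to scale as distance in bases from the upstream start site, with the p53 consensus match as a triangle. Below, FPKM of each transcript and the share (%) of the upstream one per library, with mean and SD: the share lies between 1.10% and 3.69% in controls and between 7.38% and 11.7% in treated libraries, while the downstream transcript overlaps between the groups.

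Trp53 itself was abundant and did not differ beyond the spread of the libraries. It lies on chromosome 11 from 69580359 to 69591873 and stood at 120, 126 and 100.1 FPKM in controls and at 113, 125 and 104 in treated libraries, the highest level of the 10 genes. Replicate 3 was lowest in each group and the groups overlapped fully. The log2 fold change was -0.02 ± 0.12 (limma, adjusted p = 0.999). Its transcript with 96 extra bases (NM_001127233), which codes for 381 rather than 390 residues, took 11.2%, 15.4% and 11.5% of the gene in controls and 15.9%, 11.2% and 11.5% in treated libraries, so that the shares overlapped as well. p53 is regulated mainly through the stability of the protein, which these data do not measure.

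Mdm2, the ubiquitin ligase that p53 activates and that degrades p53, did not differ beyond its spread. It lies on chromosome 10 from 117688875 to 117710758 and stood at 16.1, 17.6 and 19.5 FPKM in controls and at 16.5, 20.3 and 18.5 in treated libraries. The groups overlapped (log2 fold change 0.05 ± 0.11, limma, adjusted p = 0.991), and unlike Cdkn1a it was lowest in replicate 1 of each group. The annotation gives both its transcripts the same start site, so the promoter within the gene that p53 is known to use cannot be read from these tables. The shorter transcript (NM_001288586), which lacks an exon of 85 bases and codes for 440 rather than 489 residues, made up 12.3% ± 4.83 of the gene in controls against 14.9% ± 3.70 with blebbistatin (SD, n = 3).

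Ccng1, which encodes cyclin G1, a feedback partner of Mdm2, showed the largest log2 fold change of the 10 genes. It lies on chromosome 11 from 40748552 to 40755286 and stood at 15.1, 15.4 and 13.8 FPKM in controls and at 24.8, 27.3 and 20.05 in treated libraries. The controls lay close together and every treated library was above them, with a ratio of means of 1.63. The log2 fold change was 0.66 ± 0.12 and ranked 67 of 11540 genes by p, but with an adjusted p of 0.0913 (limma) it did not pass 0.05.

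Sesn1 encodes sestrin 1, which restrains mTORC1 signalling. It was at 31.1, 25.0 and 29.4 FPKM in controls and at 37.0, 37.8 and 36.9 in treated libraries. The treated libraries were nearly identical and all above the controls (ratio of means 1.31, log2 fold change 0.38 ± 0.10, limma, adjusted p = 0.198). Like Cdkn1a, Sesn1 has transcripts from separate starts, 76865 bases apart, on chromosome 10 between 41810574 and 41908436, but here the shares of the upstream one (NM_001162908), which codes for 551 rather than 492 residues, overlapped. It made up 6.28%, 8.91% and 6.04% in controls and 8.12%, 8.08% and 7.10% in treated libraries. For both Sesn1 transcripts every treated library lay above every control, with log2 fold changes of 0.39 ± 0.12 and 0.37 ± 0.11 (limma, adjusted p = 0.421 and 0.365).

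Trp53inp1, a nuclear protein that favours p53-dependent arrest and death and takes part in autophagy, was at 4.94, 5.05 and 4.80 FPKM in controls and at 8.32, 7.67 and 5.47 in treated libraries. The controls spread little and the treated libraries widely, with blebbistatin replicate 3 closest to the controls (ratio of means 1.45, log2 fold change 0.44 ± 0.14, limma, adjusted p = 0.289). Its transcript with 38 extra bases (NM_001199105), which codes for a shorter protein of 163 rather than 239 residues, took 23.1%, 17.3% and 19.3% in controls and 29.8%, 42.0% and 16.4% in treated libraries. Blebbistatin replicate 3 lay below all controls and the other treated libraries above them. The gene lies on chromosome 4 from 11156441 to 11174377.

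Eda2r, a death-domain-free receptor of the TNF receptor family that binds the A2 form of ectodysplasin, had the lowest level of the 10 genes and the largest ratio. It was at 0.881, 0.809 and 0.706 FPKM in controls and at 2.06, 2.09 and 0.983 in treated libraries. All treated libraries were above the controls, blebbistatin replicate 3 by little (ratio of means 2.14, log2 fold change 0.56 ± 0.18, limma, adjusted p = 0.310). The control mean of 0.798 FPKM was under the minimum of 1 FPKM for that test, and the treated mean was 1.71. Eda2r was therefore tested only through the treated libraries. With 0.1 in place of 1 added before the logarithm, the log2 fold change was 0.94. All 3 Eda2r transcripts, on chromosome X from 97333841 to 97377209, share a start and code for the same 297 residues. The one with 45 extra bases (NM_001161432) was at 0.326, 0.236 and 0.268 FPKM in controls, and at 0.334 in blebbistatin replicate 2 but under 0.001 in blebbistatin replicates 1 and 3. The other transcripts were higher in every treated library than in any control, at 0.694 to 1.32 against 0.264 to 0.359 FPKM for NM_175540 and at 0.289 to 0.736 against 0.174 to 0.214 FPKM for NM_001161433. Eda2r was below the minimum of 5 FPKM for the share test, so these shares were not tested.

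Phlda3, which competes with Akt for membrane lipids, was at 26.1, 19.2 and 19.2 FPKM in controls and at 33.9, 32.1 and 23.3 in treated libraries. Control replicate 1 lay above blebbistatin replicate 3, so the groups overlapped (log2 fold change 0.45 ± 0.17, limma, adjusted p = 0.413). Zmat3, an RNA-binding zinc finger protein, was at 3.13, 3.86 and 3.05 FPKM in controls and at 4.19, 4.28 and 3.60 in treated libraries. The groups overlapped through control replicate 2 (log2 fold change 0.21 ± 0.11, limma, adjusted p = 0.665). Of the 7782 exon bases of Zmat3, 162 are shared with 4930429B21Rik on the opposite strand, and the sources used here do not say if strand was kept. No other gene of the 10 shares exon bases with another gene.

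Bbc3 encodes PUMA, the BH3-only protein through which p53 starts apoptosis. It was at 7.20, 5.10 and 5.25 FPKM in controls and at 6.80, 5.58 and 4.05 in treated libraries. The groups overlapped and the treated mean was the lower (log2 fold change -0.09 ± 0.18, limma, adjusted p = 0.991). Without control replicate 1 or blebbistatin replicate 3 the sign was positive. Phlda3 lies on chromosome 1 from 135766085 to 135769134, Zmat3 on chromosome 3 from 32334794 to 32365665 and Bbc3 on chromosome 7 from 16309583 to 16318334.

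**Figure D2:**
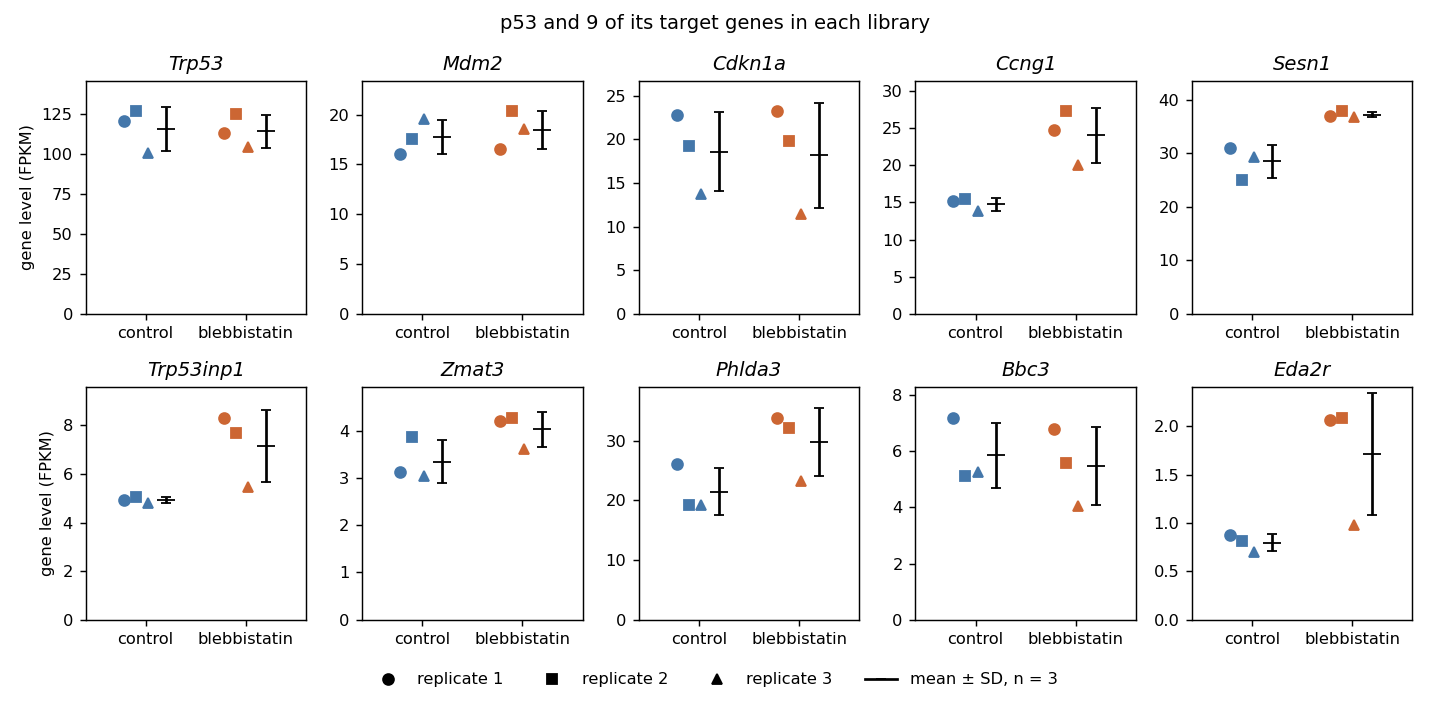
FPKM of Trp53 and 9 target genes in each of the 6 libraries (symbols: replicates 1 to 3), with mean and SD per group; each panel has its own axis from 0. Ccng1, Sesn1, Trp53inp1 and Eda2r are higher in every treated library than in any control, while Trp53, Mdm2, Cdkn1a and Bbc3 overlap widely.

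Of the 10 genes 7 had a higher mean with blebbistatin and 3 a lower one, and 55.2% of the 11540 genes tested had a higher mean. The median log2 fold change was 0.30, against 0.01 over all genes tested, and 0 of the 10 passed an adjusted p of 0.05, where 0.078% of all genes passed, 0.0347% as higher (limma). At an unadjusted p under 0.05 there were 5 of the 10 (Ccng1, Sesn1, Trp53inp1, Eda2r and Phlda3), where 9.36% of all genes tested were under it. In 4 of the 10 every treated library lay above every control, which held for 7.48% of all genes tested. Eda2r, which is in both counts, reached the minimum of 1 FPKM for the test only through its treated libraries. Of the 14 member transcripts tested 0 passed, where 0.00692% of 14460 transcripts did. Among these 14, the upstream Cdkn1a transcript and NM_001199105 of Trp53inp1 (control mean 0.980 FPKM) reached the minimum of 1 FPKM only through treated libraries. Since the genes were proposed from this comparison, nothing is read from these shares.

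By level in controls the order was Trp53, Sesn1, Phlda3, Cdkn1a, Mdm2, Ccng1, Bbc3, Trp53inp1, Zmat3 and Eda2r. Trp53 (115.6 ± 13.8 FPKM) stood far above Sesn1 (28.5 ± 3.14), and Eda2r (0.798 ± 0.0881) far below Zmat3 (3.35 ± 0.44; SD, n = 3 each). Phlda3 (21.5 ± 3.96), Cdkn1a (18.6 ± 4.56) and Mdm2 (17.7 ± 1.73) did not differ beyond their spread, and neither did Bbc3 (5.85 ± 1.17) and Trp53inp1 (4.93 ± 0.13). With blebbistatin, Ccng1 (24.0 ± 3.68) stood above the means of Cdkn1a and Mdm2, which it lay below in controls.

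The libraries of a group differed in the same way for many of the genes. Blebbistatin replicate 3 was the lowest treated library for 9 of the 10, all but Mdm2, and it was the lowest for 44.7% of all genes tested. Control replicate 3 was the lowest control for 7 of the 10, against 43.3% of all genes tested. Of the 8 epithelial markers, 5 were lowest in control replicate 3, 7 in blebbistatin replicate 3 and 4 in both. Among these 4 were Cldn4 (117, 98.3 and 74.1 FPKM in controls, 127, 95.1 and 77.2 with blebbistatin) and Krt8 (450, 396 and 295 FPKM in controls, 383, 337 and 264 with blebbistatin). Epcam, Cdh1, Krt5 and Krt14 were not among these 4. Of the 8 mesenchymal markers, 6 were lowest in control replicate 3, 2 in blebbistatin replicate 3 and 1 in both. For the 5 neuronal markers these counts were 0, 5 and 0. The part of the epithelial markers in the values of Cdkn1a was not tested. With both libraries numbered 3 left out, the median log2 fold change of the 10 genes was 0.32 and 0 passed.

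The genes whose levels followed Cdkn1a most closely over the 6 libraries, among 8792 with a mean of at least 5 FPKM, were Hlcs (Pearson's r = 0.997 on log2(FPKM + 1)), Atf6b (0.996), Cttn (0.991) and Sfn (0.982). Sfn encodes the 14-3-3 sigma protein, itself a p53 target in epithelia, and stood at 73.9, 55.7 and 41.3 FPKM in controls and at 64.9, 55.8 and 34.0 in treated libraries. Of the genes followed here, Bbc3 had an r of 0.885 with Cdkn1a, Trp53 0.735, Phlda3 0.564, Eda2r 0.473, Trp53inp1 0.437 and Zmat3 0.358. Ccng1 had an r of 0.24 with Cdkn1a, Sesn1 -0.04 and Mdm2 -0.55. These correlations over 6 libraries are descriptions.

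Shares of the lesser transcripts set Cdkn1a apart from most of the other genes with several transcripts only as a description. In Sesn1, Mdm2, Trp53 and Trp53inp1 the shares of the groups overlapped, with differences of 0.69, 2.57, 0.15 and 9.51 percentage points. These differences moved with single libraries, and leaving out each in turn gave 0.17 to 1.61 points for Sesn1, 0.45 to 5.20 for Mdm2, -1.37 to 1.51 for Trp53 and 3.21 to 16.0 for Trp53inp1. In Cdkn1a and in the 3 low Eda2r transcripts the shares of the groups did not overlap.

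**Figure D3:**
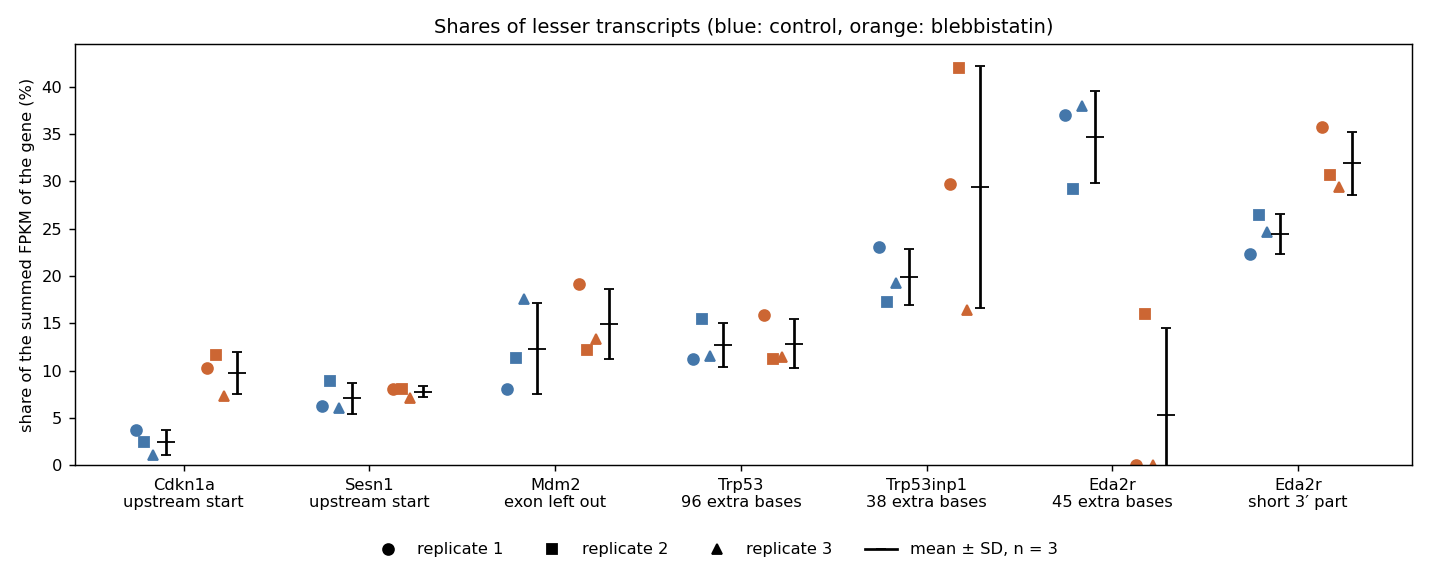
Share (%) of each lesser transcript in its gene's total FPKM, per library (blue: control, orange: blebbistatin), with mean and SD; bars that reach below 0 are cut at the axis. The groups are apart for Cdkn1a and for both Eda2r transcripts and overlap for Sesn1, Mdm2, Trp53 and Trp53inp1.

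Other genes of the p53 network were read from a list of 123 symbols chosen by function, of which 121 were in the table and 111 were tested. The list was drawn up with earlier results of these data known, so its counts here and below are a description. None passed the threshold (limma), which 0.078% of all genes tested did. An unadjusted p under 0.05 was seen for 32 (28.8%), against 9.36% of all genes tested. Of these 32, 12 were among the genes listed as bound or repressed by DREAM and 4 among the cyclins, kinases, Rb-family and E2F genes described below. Among 53 tested targets outside the 10 (feedback, arrest, death, repair, metabolism and secreted factors), 39 (73.6%) had a higher and 14 a lower mean, against 55.2% higher over all genes tested. Their median log2 fold change was 0.15, and 12 (22.6%) had an unadjusted p under 0.05, against 9.36% of all genes tested.

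The regulators upstream of p53 were close to level. Of 15 tested, 12 had a higher mean, with a median log2 fold change of 0.04. The checkpoint kinases Chek2 (0.24 ± 0.10) and Chek1 (0.27 ± 0.12) had the smallest p, and neither passed (limma, adjusted p = 0.513 and 0.515). Rpl11 and Rpl5, ribosomal proteins that can bind Mdm2, had the highest levels, with means of 2424 and 844 FPKM. Among 8 partners and relatives of p53, Trp73 was at 9.85, 8.07 and 7.16 FPKM in controls and at 13.3, 12.5 and 10.5 in treated libraries (log2 fold change 0.49 ± 0.13, limma, adjusted p = 0.208). Trp63, the relative that maintains basal epithelial cells, had the highest level there, with a mean of 46.8 FPKM and a log2 fold change of 0.11 ± 0.09. Ppp1r13b, a cofactor that directs p53 to death genes, stood lower in all treated libraries (-0.21 ± 0.10).

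Among death genes, 11 of 12 had a higher mean. Apaf1, the scaffold of the apoptosome, was at 5.13, 5.73 and 5.49 FPKM in controls and at 8.06, 6.85 and 6.56 in treated libraries (log2 fold change 0.33 ± 0.10, limma, adjusted p = 0.268), and Ei24 had 0.19 ± 0.079. Perp, a desmosomal protein and p53 target, and Siva1 were the most abundant, with means of 187 and 138 FPKM. Among repair genes 7 of 10 had a higher mean, led by the translesion polymerases Polk (0.33 ± 0.10) and Polh (0.24 ± 0.080). The replication clamp Pcna was the most abundant there, with a mean of 195 FPKM. Of the feedback genes, Zfp365 had 0.25 ± 0.10 and Ccng2, the relative of Ccng1, 0.20 ± 0.09, with all treated libraries above all controls in both.

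Metabolic targets were split, with 8 of 14 higher. Ephx1, microsomal epoxide hydrolase, was at 17.7, 14.3 and 17.2 FPKM in controls and at 27.1, 26.3 and 22.8 in treated libraries (log2 fold change 0.60 ± 0.11, limma, adjusted p = 0.0929). Ak1, an adenylate kinase, stood lower, at 26.7, 18.7 and 18.4 FPKM in controls and at 11.3, 14.7 and 14.3 in treated libraries (-0.62 ± 0.16, limma, adjusted p = 0.201). Arrest genes other than Cdkn1a had 5 of 8 means higher, with Ckap2 (0.42 ± 0.13) and Gtse1 (0.25 ± 0.13) first by p. Both are also expressed with the mitotic program. Sfn and Plk2 were the most abundant, with means of 54.3 and 50.2 FPKM. Of 5 secreted factors 4 had a higher mean, and Serpinb5 (0.55 ± 0.20), the serpin maspin, had the smallest p, followed by Cx3cl1 (0.27 ± 0.19). Leaving out blebbistatin replicate 1 took Cx3cl1 to 0.054, and leaving out blebbistatin replicate 3 took it to 0.49.

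The kinases that p21 inhibits and the genes repressed through p21 were read as well. p21 lowers the activity of cyclin-dependent kinases, and the DREAM complex of Rb-like proteins and E2F4 then represses genes of mitosis. All 14 tested cyclins, kinases, Rb-family and E2F genes had a higher mean with blebbistatin, with a median log2 fold change of 0.14. Ccnd2, cyclin D2, was at 166, 156 and 135 FPKM in controls and at 258, 246 and 217 in treated libraries (0.66 ± 0.12, limma, adjusted p = 0.0785), and Ccna2 had 0.48 ± 0.13.

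All 16 genes listed as bound or repressed by DREAM had a higher mean too, with a median of 0.36. In 12 of them every treated library lay above every control. The 16 include Lin9 (0.16 ± 0.10, groups overlapping) and Lin54 (0.39 ± 0.13, all treated libraries higher), which encode subunits of the complex itself. Over all genes tested, 55.2% had a higher mean and 7.48% had every treated library above every control. Cdk1 stood at 37.9, 47.0 and 41.6 FPKM in controls and at 56.0, 57.0 and 55.2 in treated libraries (log2 fold change 0.41 ± 0.10, limma, adjusted p = 0.172). Ccnb2 had 0.36 ± 0.09. None of the 16 passed, where 0.078% of all genes did, and 12 had an unadjusted p under 0.05, where 9.36% of all genes did. Among the other inhibitors of these kinases, Cdkn1c had the highest level, with a mean of 159 FPKM, and every treated library lay below every control (222, 147 and 161 against 139, 138 and 146 FPKM). The margin was narrow, with 146.6 FPKM in control replicate 2 against 146.0 in blebbistatin replicate 3. Cdkn1c did not pass (log2 fold change -0.30 ± 0.15, limma, adjusted p = 0.645). Every treated library lay below every control for 6.8% of all genes tested. Cdkn1b was at a mean of 15.8 FPKM, and Cdkn2c (0.33 ± 0.12) and Cdkn3 (0.33 ± 0.16) had the smallest p.

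**Figure D4:**
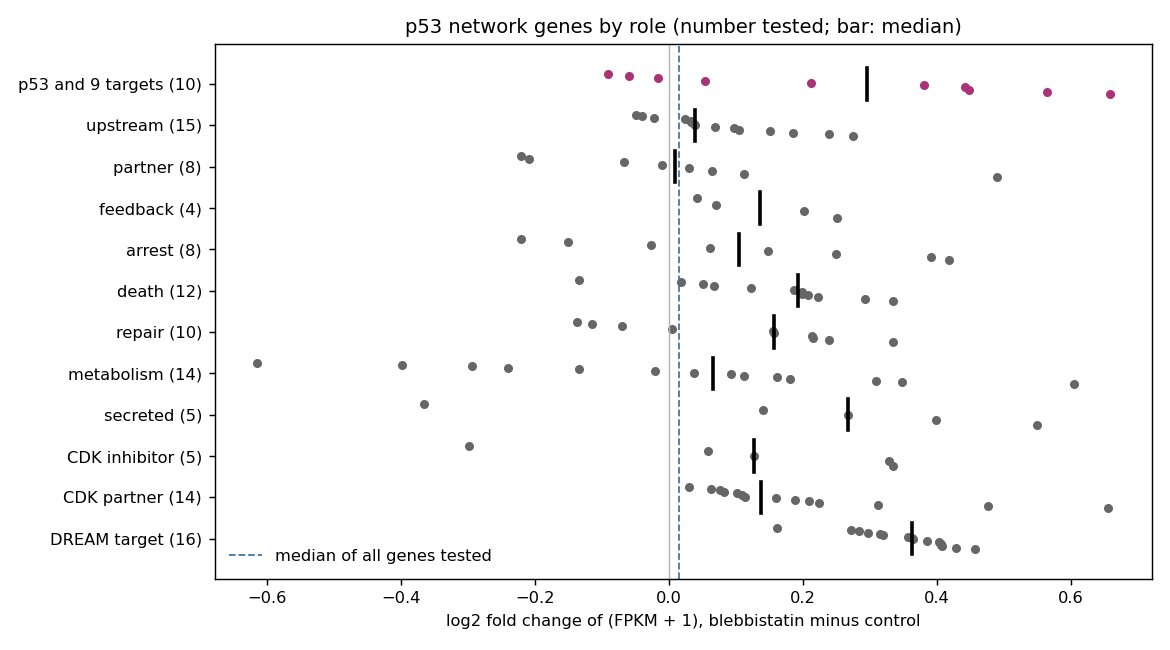
Log2 fold change of (FPKM + 1), blebbistatin minus control, of each tested gene (points) by role in the p53 network, with the number tested and the median as a bar; the dashed line is the median of all genes tested (0.01). The genes listed as DREAM targets, Lin9 and Lin54 included, have the highest median (0.36) and lie wholly above 0, while upstream regulators and partners centre near 0.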

How the data were processed

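TopHat2 2.0.13, Bowtie2 2.2.3, Cufflinks 2.2.1 and the build mm10 are named, per the submitters' processing notes, with no role given. The gene and transcript tables hold FPKM as the authors deposited them, per the file headers, for a RefSeq annotation deposited beside them, from which coordinates (counted from 1), transcript lengths and exon bases were taken. BB in a column name was read as blebbistatin, and an unnumbered column as replicate 1. Gene and transcript values (log2 of FPKM + 1, rows with a mean of at least 1 FPKM) were fitted over the whole tables with limma 3.58.1 in R 4.3.3 (trended empirical Bayes, treatment as the only term, Benjamini-Hochberg, threshold 0.05). Transcript shares of a gene's summed FPKM were fitted on the arcsine square root scale for genes with at least 2 transcripts and 5 FPKM, and mean shares of 5% to 95%. Fold changes understate the change of low genes. FPKM are not counts, so no count model was used. In genes of at least 4000 bases with 1 transcript, 77.8% to 84.8% of low values lay within 0.1 of a whole fragment. Estimated fragments carry no counting interval, since Cufflinks is a tool that estimates transcript levels.

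The genes and lists were chosen with earlier results of these data known. Named were the 10 genes, in each role of the network list the 2 genes of smallest p and the 2 of highest level, and the 4 genes most like Cdkn1a. One gene that this rule names is not reported here. Cldn4 and Krt8 were chosen after their values were seen. Promoter windows come from the RefSeq table of build GRCm38.p6. The p53 consensus was searched without a spacer, and reads the same on both strands. The fits were tested on simulated data. Alternatives were another pseudocount, other filters, quantile and median-of-ratios scaling, array weights, a replicate block and leaving out each library.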

Additional observations from a re-analysis of the deposited data

How the results depend on the processing

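The count of 0 among the 10 genes held under each alternative run for genes except a replicate block, which no label supports as a pairing, where 1 of the 10 passed (Ccng1, log2 fold change 0.66, adjusted p = 0.0338) and 2 of the network list (Ccnd2, adjusted p = 0.0307, and Trp73, adjusted p = 0.0430). Among the 10 genes, their transcripts and shares and the network list, the block changed no other call. The counts of 0 for transcripts and shares held under the alternatives run for them, which did not include quantile normalization, median-of-ratios rescaling, array weights or the minimum of 5 FPKM. Deviations of same-numbered libraries correlated across genes at 0.18, 0.094 and 0.25, and each library correlated best with its own number. In the network list 1 gene, Ccnd2, passed after quantile normalization and 1, again Ccnd2, with array weights. The count over all genes was 9 in the main test, 144 with the block, 57 with array weights, 27 with a minimum of 5 FPKM, 2 after median-of-ratios rescaling and 1 with no filter. It was between 1 and 13 without single libraries. Among the 10 genes, leaving out single libraries moved the log2 fold change through 0 for Trp53 (-0.12 to 0.050), Cdkn1a (-0.26 to 0.23), Mdm2 (-0.015 to 0.13) and Bbc3 (-0.24 to 0.077). The same held for the transcripts NM_010786 of Mdm2 (-0.076 to 0.12), NM_011640 (-0.11 to 0.030) and NM_001127233 (-0.16 to 0.20) of Trp53 and NM_007669 of Cdkn1a (-0.36 to 0.099), and for the share of NM_001127233 (-1.37 to 1.51 percentage points). Array weights gave 0.046 for Trp53 and 0.020 for Cdkn1a. Leaving out both libraries numbered 3, chosen after the data were seen, gave 0.034 for Cdkn1a and 0.018 for Bbc3. The cause was not tested. Ccng1, Sesn1, Trp53inp1, Eda2r, Phlda3 and Zmat3 kept a positive sign under each alternative run for them. Eda2r and Zmat3 have none for the minimum of 5 FPKM, which they do not reach. The level of the upstream Cdkn1a transcript, at about 9 to 133 fragments of whole transcripts, limits the precision of its share. Of its 1936 bases only 116 are in no other Cdkn1a transcript, so the fragments that tell it apart are fewer than these.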

Other observations

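Targets and regulators that lay below the mean of 1 FPKM were not tested. Pmaip1, the BH3-only protein Noxa, was at 0.706, 0.616 and 0.631 FPKM in controls and at 0.749, 0.895 and 0.333 in treated libraries. Gdf15, a secreted factor often induced by p53, lay between 0.0633 and 0.307 FPKM in all 6 libraries. Cdkn2a, whose Arf product blocks Mdm2, was listed at 0 in control replicate 1 and in blebbistatin replicates 1 and 3, and its highest value was 0.135 FPKM in control replicate 3. The gene 9030617O03Rik, listed among the metabolic targets, was higher in every treated library, at 1.25, 0.802 and 0.631 FPKM, than in any control, at 0.518, 0.453 and 0.479 FPKM. These genes were singled out after their values were seen.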
